A study of Mus musculus with 5 samples.

Results

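The 40 genes described here encode the enzymes that carry glucose carbon through glycolysis to pyruvate and lactate, pass pyruvate into the mitochondrion, and oxidise it in the tricarboxylic acid (TCA) cycle. They were chosen by gene symbol from the 24421 symbols counted in kidney cortical tissue. There were 17 genes of glycolysis and lactate dehydrogenase, 8 of the pyruvate dehydrogenase complex and its kinases, and 15 of the TCA cycle with cytosolic isozymes. The mice were Fnip1 null (Fnip1-/-, 3 mice: 8637, 9121 and 9210) and wildtype (2 mice: 9055 and 9056), all labelled as C57BL6J with no treatment named. The null allele came from chemical (ENU) mutagenesis and is carried in every cell of the animal, and the control mice are labelled Fnip1+/+ while the study's methods describe its controls as Fnip1+/-. Kidneys came from adult mice, and the labels give neither the age nor the sex of any single mouse. Fnip1 is a partner of folliculin, a protein of nutrient sensing that acts with the kinases AMPK and mTORC1.

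Glycolysis splits glucose in the cytosol. Hexokinase and phosphofructokinase control its early steps, and pyruvate kinase its last step. Lactate dehydrogenase interconverts pyruvate and lactate. The pyruvate dehydrogenase complex turns pyruvate into acetyl-CoA, and pyruvate dehydrogenase kinases switch that complex off by phosphorylation. In the kidney cortex, proximal tubule cells live mainly on oxidative metabolism and make glucose, whereas glycolytic enzymes are used more by the distal segments of the nephron. The comparison of genotypes addressed whether the transcripts of this central route of carbon metabolism differed in kidneys lacking Fnip1, a question the study raised when it measured the metabolism of tubular cells.

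Each library held between 15799114 and 19132145 counts assigned to genes, and 13874 genes passed the filter on low counts. Levels below are CPM, the counts of a gene scaled to a common library size by the TMM method, and 3 counts correspond to 0.158 to 0.186 CPM. Fnip1 itself was at 20.96, 16.0 and 16.9 CPM in null mice 8637, 9121 and 9210 and at 51.7 and 48.6 CPM in wildtype mice 9055 and 9056, a log2 fold change of -1.48 ± 0.14 (SE, adjusted p = 0.033, edgeR quasi-likelihood test). The library of null mouse 9121 stood apart: the Y chromosome genes Ddx3y, Uty and Kdm5d had 0 counts in it and Eif2s3y had 7, against 450 to 789 in the other libraries, and it held 5954 counts of Xist against 3 to 24 in the other libraries. Results are therefore also given without mouse 9121. Markers of tubule segments and other cells differed between genotypes as well. The summed level of 16 proximal tubule markers was 25247 to 44422 CPM in null mice and 59123 to 66320 CPM in wildtype mice. Without Kap, an androgen-dependent gene, the other 15 summed to 20410.5 to 30844 CPM against 32388 to 37080 CPM. Those 15 still held Slc7a13, which like Kap is also in the list of male-biased genes below. Of the 16 markers, 7 were lower in every null mouse than in both wildtype mice (23% of all genes). Another 3 were higher (22.9% of all genes), and none was at 0. The sums of 9 collecting duct markers (1094 to 1610 against 810 to 858 CPM), 4 distal convoluted tubule markers (1525 to 1740 against 1089 to 1278 CPM) and 9 macrophage and dendritic cell markers (330 to 774 against 229 to 324 CPM) were higher in null mice, the last by a small margin. Single markers did not all follow these sums. In that order of lists, 7, 3 and 7 markers were higher in null mice without overlap (22.9% of all genes), and 1 in each list overlapped. Avpr2 of the collecting duct list and Csf1r of the macrophage and dendritic cell list were lower in all null mice. The sum of 5 podocyte markers was 658 to 773 CPM in null mice and 367 to 370.1 CPM in wildtype mice. All 5 were higher in every null mouse (22.9% of all genes), and 3 were past an FDR of 5% (0.678% of all genes). Sums were also higher in null mice for 6 fibroblast and smooth muscle markers (266 to 515 against 146 to 239 CPM), 6 endothelial markers (294 to 381 against 156 to 272 CPM) and 6 neutrophil markers (6.65 to 10.3 against 0.993 to 1.14 CPM), of which Mpo and Elane were at 0 in every library. Of 7 genes known to be male-biased in kidney, the sum was 5164 to 18675 CPM in null mice and 35692 to 39772 CPM in wildtype mice, and 5 female-biased genes summed to 354 to 988 CPM against 63.6 to 79.6 CPM. In whole tissue, fewer cells of a type and less RNA per cell cannot be told apart, and the part of these shifts in the enzyme values was not tested.

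The 40 enzyme transcripts made up 1.81%, 1.89% and 1.92% of all gene counts in null mice 8637, 9121 and 9210, against 1.66% in wildtype mouse 9055 and 1.74% in wildtype mouse 9056, so that every null mouse was above both wildtype mice. On the TMM scale, where composition is taken into account, their sum was 18371, 17310, 17980 CPM in the null mice and 17321 and 19030 CPM in the wildtype mice, and the genotypes overlapped. Of the 40 genes, 39 were tested. Hk3, a hexokinase found mainly in blood cells, had 6, 32 and 5 counts in null mice 8637, 9121 and 9210 and 8 and 4 counts in the wildtype mice, and was left out by the filter.

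No enzyme transcript passed a false discovery rate (FDR) of 5% in the edgeR quasi-likelihood test, 0 of 39 tested, against 0.678% of all genes. With the further limit of a 2-fold change that the study used, the count was again 0, against 0.526% of all genes. At an unadjusted p under 0.05 there were 7 members (17.9%), fewer in proportion than the 25.1% of all genes tested. Of these 7, Hk2, Pfkm, Pkm and Pdk1 were higher in null mice (14% of all genes were under 0.05 in that direction) and Ldha, Pdk3 and Aco1 lower (11.2% of all genes). Without mouse 9121 the members under 0.05 were the same 7 of 39 (17.9%, against 20.7% of all genes). In that comparison 0 members passed the FDR, against 1.37% of all genes. The count past the FDR depended on mouse 8637, the null mouse nearest to wildtype for each of the 7. Without it these 7 of the 39 members passed and no others (17.9%, against 20.1% of all genes). Without mouse 9210, 9055 or 9056 the count was 0, as it was for all genes (0%). The count under an unadjusted p of 0.05 was 11 without mouse 8637 (38% of all genes), 4 without mouse 9210 (14.9%), 5 without wildtype mouse 9055 (17.6%) and 3 without wildtype mouse 9056 (8.71%). The other tests called more genes, both over the whole table and among the members. edgeR's exact test placed 4 members past the FDR (Hk2, Pfkm, Pdk1 and Pdk3) against 9.82% of all genes, of which Hk2 was also past 2-fold (4.11% of all genes), and DESeq2 placed 5 (Pfkm, Pkm, Ldha, Pdk1 and Pdk3) against 10.4%.

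The fold changes were small and went both ways. On the log2 scale 20 members lay above 0 and 19 below, and the median fold change was 0.01, beside 0.0035 over all genes tested. The median size of the change without its sign was 0.13 on the log2 scale for the members and 0.22 for all genes. The log2 fold change was under 0.25 in size for 29 of the 39 (74.4%), against 53.8% of all genes. The 95% interval lay within 2-fold in both directions for 35 of the 39 (89.7%), against 70.4% of all genes, and the exceptions were Hk2, Pkm, Pdk3 and Aldoc. The standard errors, which depend on the level and spread of a gene, had a median of 0.12 for the members and 0.15 for all genes. The plot of fold changes shows this order by role.

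**Figure D1:**
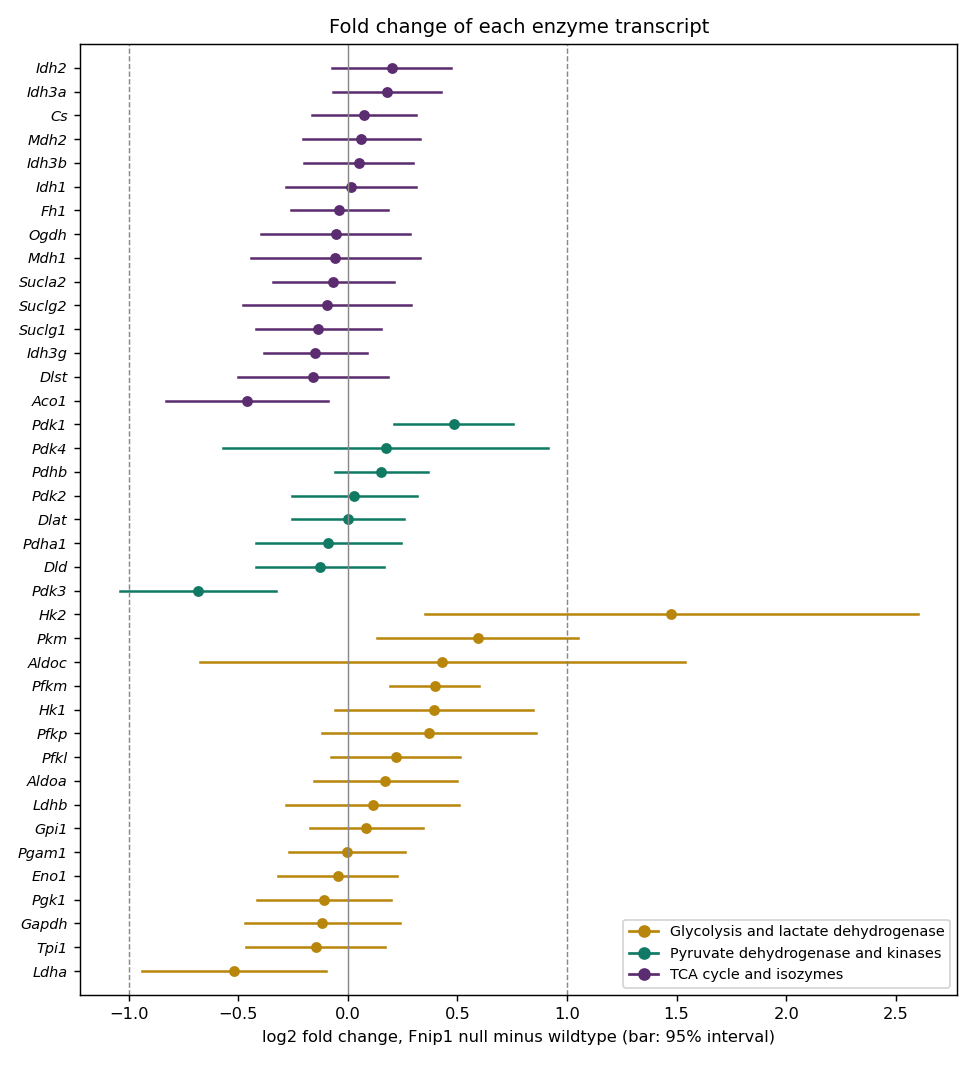
The log2 fold change of each of the 39 tested enzyme transcripts (x axis, Fnip1 null minus wildtype) is shown as a point with its 95% interval from the quasi-likelihood fit, grouped and coloured by role, with dashed lines at 2-fold. All 15 intervals of the TCA cycle genes lie within the dashed lines, and the point farthest from 0 is Hk2 at 1.48.

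Genotypes did not overlap for 14 of the 39 (35.9%), against 45.9% of all genes. In 9 of them every null mouse was above both wildtype mice (Hk2, Pfkl, Pfkm, Pfkp, Aldoa, Pkm, Pdhb, Pdk1 and Idh2), against 22.9% of all genes, and in 5 every null mouse lay under both (Tpi1, Ldha, Pdk3, Aco1 and Idh3g), against 23% of all genes. Among these 14, mouse 8637 was the null mouse nearest to wildtype for 11 and mouse 9121 was the farthest for 10. Over all 39, mouse 9121 was the lowest of the 5 libraries for 16 members and the highest for 9. The wildtype mice also differed from each other: mouse 9056 was the highest of the 5 for 18 members and mouse 9055 the lowest for 15, and the median difference between these mice was 0.16 in size on the log2 scale.

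**Figure D2:**
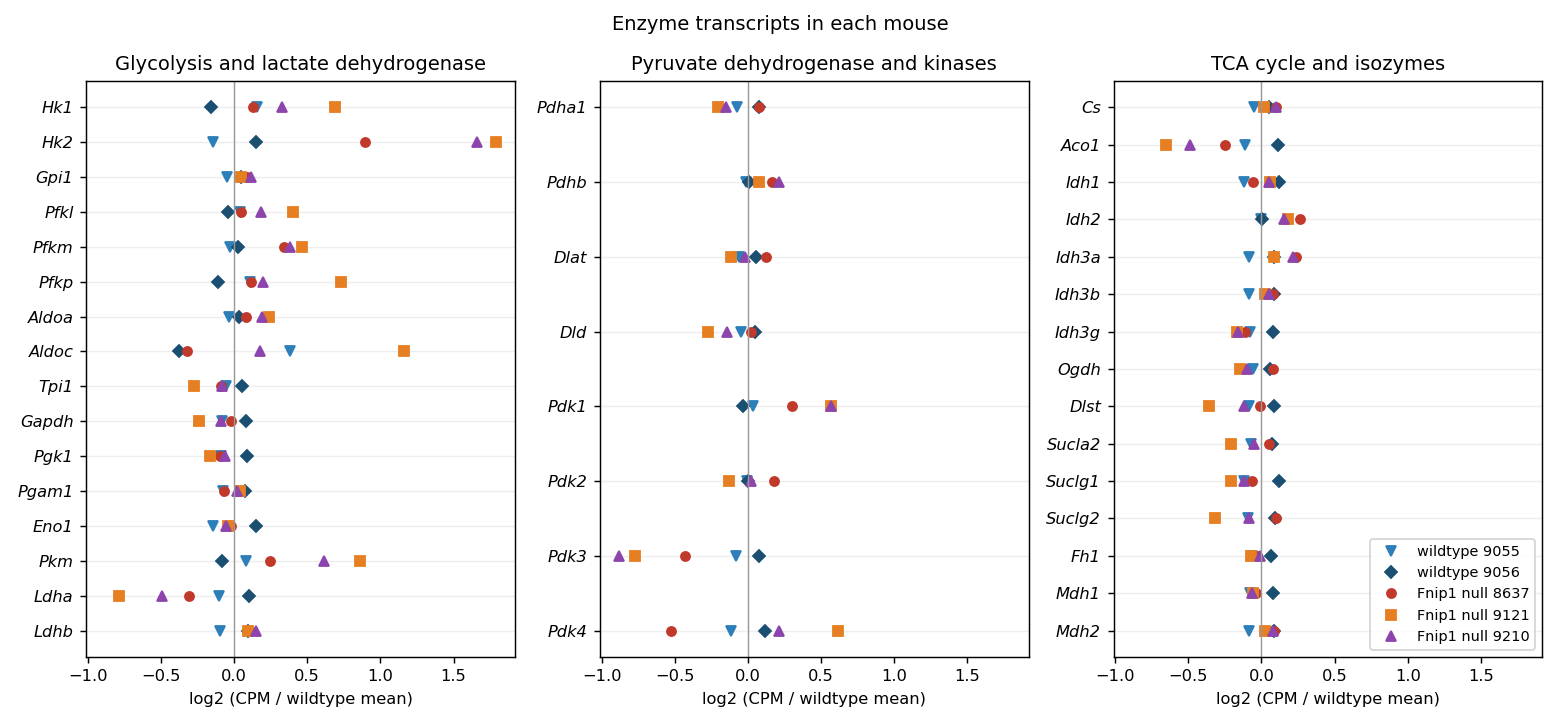
Each point is the level of an enzyme transcript in 1 mouse as log2 of its CPM over the mean of the wildtype mice (log2 scale, mean of logs), by role, for the 3 Fnip1 null and 2 wildtype mice. Most TCA cycle genes lie close to 0 in all mice, while Hk2, Pkm, Pfkp, Aldoc, Ldha, Pdk3 and Aco1 spread farther among the null mice, with mouse 9121 often at the end.

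The glycolytic genes had the widest spread of the 3 groups. Of 16 tested, 10 lay above 0 and 6 below on the log2 scale, with a median fold change of 0.14 (0.11 without mouse 9121). There were 4 under an unadjusted p of 0.05 (25.0%, against 25.1% of all genes) and 8 whose genotypes did not overlap (50%, against 45.9% of all genes), 6 higher and 2 lower in null mice, so both shares were near those of all genes. With all mice, the early steps up to aldolase were on the positive side and most of the abundant later steps near 0. The sum of the 17 glycolytic transcripts was 7870, 7864 and 8075 CPM in null mice 8637, 9121 and 9210 and 7562 and 8242 CPM in wildtype mice 9055 and 9056, so it overlapped.

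Hexokinases phosphorylate glucose as it enters the pathway. Hk1 (chr10:62268855-62379908, minus strand, GRCm38), the form found in most tissues, made up 99.1% ± 0.365 of hexokinase transcripts per transcript length in null mice and 99.5% ± 0.0516 in wildtype mice (SD, n = 3 and 2). Its level was 158, 233 and 181 CPM in null mice 8637, 9121 and 9210 and 161 and 130 CPM in wildtype mice 9055 and 9056. Only mice 9121 and 9210 were above both wildtype mice. Its log2 fold change was 0.39 ± 0.19 (SE, adjusted p = 0.245, edgeR) and 0.22 without mouse 9121. Hk2 (chr6:82725025-82774454, minus strand), the insulin-responsive form of muscle and fat, was rare, with 13, 27 and 22 counts in null mice 8637, 9121 and 9210 and 6 and 8 counts in the wildtype mice. Every null mouse was above both wildtype mice, at 0.766 to 1.42 CPM against 0.373 to 0.457 CPM. This came to a log2 fold change of 1.48 ± 0.46 (SE, adjusted p = 0.131, edgeR), with a 95% interval from 0.35 to 2.60, and it was 1.30 without mouse 9121.

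Phosphofructokinase, the committed step of glycolysis, has 3 subunit forms. All 3 were higher in every null mouse, Pfkl and Pfkp only narrowly so in mouse 8637. The muscle-type subunit Pfkm (chr15:98092589-98132451, plus strand) was the most regular. It was at 98.0, 106 and 101 CPM in null mice 8637, 9121 and 9210 and at 75.9 and 78.6 CPM in wildtype mice 9055 and 9056. The 3 null mice lay close together and clear of the wildtype mice. The log2 fold change was 0.40 ± 0.08 (SE, adjusted p = 0.0791, edgeR), the lowest adjusted p of the 39, and 0.36 without mouse 9121. The liver-type subunit Pfkl was at 81.8, 105 and 90.1 CPM in the null mice and 81.5 and 77.0 CPM in the wildtype mice, so mouse 8637 exceeded wildtype mouse 9055 by less than the wildtype mice differed. The platelet-type subunit Pfkp was at 59.0, 90.4 and 62.2 CPM against 58.6 and 50.5 CPM. Here too mouse 8637 exceeded wildtype mouse 9055 by less than the wildtype mice differed. The log2 fold changes of Pfkl and Pfkp, 0.22 ± 0.12 and 0.37 ± 0.20 (SE), came to 0.12 and 0.15 without mouse 9121. Per transcript length, Pfkm supplied 46.1% ± 3.09 of the family in null mice and 43.8% ± 2.21 in wildtype mice, with overlapping ranges, and Pfkl 32.0% ± 0.713 and 34.7% ± 0.483 (SD, n = 3 and 2).

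Aldolase splits the doubly phosphorylated sugar. Aldoa, the muscle and general form, was at 993, 1107 and 1069 CPM in null mice 8637, 9121 and 9210 and 916 and 961 CPM in wildtype mice 9055 and 9056. All null mice were higher, mouse 8637 by less than the gap between the wildtype mice, and the log2 fold change was 0.17 ± 0.13 (SE, adjusted p = 0.458, edgeR). Aldoc, the brain form, was at 10.4, 29.2 and 14.7 CPM against 16.9 and 10.003 CPM, and its log2 fold change of 0.43 ± 0.46 (SE) turned to -0.10 without mouse 9121.

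The middle steps were abundant and near their wildtype level. Gpi1, the isomerase of hexose phosphates, had a log2 fold change of 0.08 ± 0.11. Tpi1, which interconverts the triose phosphates, was at 803, 706 and 807 CPM in null mice 8637, 9121 and 9210 and 824 and 886 CPM in wildtype mice 9055 and 9056, lower in every null mouse at a log2 fold change of -0.15 ± 0.13 (SE, adjusted p = 0.51, edgeR) that was 0.014 when scaled by library size alone. Gapdh, Pgk1, Pgam1 and Eno1, the enzymes from glyceraldehyde phosphate to phosphoenolpyruvate, had log2 fold changes of -0.12 ± 0.15, -0.11 ± 0.13, -0.0045 ± 0.11 and -0.05 ± 0.11 (SE). Their genotypes overlapped. Some glycolytic transcripts shared many 50-base stretches with transcripts of other genes, and where those genes lie was not checked. The share was 53.9% of the stretches for Pgk1, 36.2% for Pgam1, 26.0% for Eno1, 25.8% for Pkm, 25.1% for Gapdh and 20.99% for Ldhb. Reads aligned to several places were not counted, so the levels of these 6 are uncertain, and Eno1 at 41.5 ± 0.531 CPM in null mice stood far below its neighbours in the pathway.

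Pkm (chr9:59656368-59679375, plus strand) encodes the M forms of pyruvate kinase, the step that yields pyruvate. It was at 376, 575 and 485 CPM in null mice 8637, 9121 and 9210 and at 336 and 299 CPM in wildtype mice 9055 and 9056. Every null mouse was above both wildtype mice, mouse 8637 by the smallest margin. Pkm had a log2 fold change of 0.59 ± 0.19 (SE, adjusted p = 0.136, edgeR) with a 95% interval from 0.13 to 1.05, and 0.44 without mouse 9121. Counts per gene do not separate the M1 and M2 transcripts. Pkm made up 92.1% ± 1.54 of pyruvate kinase transcripts per transcript length in null mice and 89.9% ± 1.89 in wildtype mice (SD, n = 3 and 2), with Pklr, the liver and red cell form that is not among the 40, as the rest, and these shares overlapped.

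Lactate dehydrogenase is a tetramer of A and B subunits, the A subunit being typical of glycolytic tissue and the B subunit of oxidative tissue. Ldha (chr7:46841475-46855627, plus strand) was at 727, 520.0 and 639 CPM in null mice 8637, 9121 and 9210 and at 838 and 964 CPM in wildtype mice 9055 and 9056. Each null mouse had less than either wildtype mouse. For Ldha the log2 fold change was -0.52 ± 0.17 (SE, adjusted p = 0.143, edgeR) with a 95% interval from -0.94 to -0.10, and -0.40 without mouse 9121. Ldhb (chr6:142490249-142507957, minus strand) was at 1637, 1628 and 1686 CPM in the null mice and 1424 and 1629 CPM in the wildtype mice. Its genotypes overlapped, with a log2 fold change of 0.11 ± 0.16. The makeup of the pair therefore differed without overlap. Ldha supplied 24.7%, 19.1% and 21.9% of lactate dehydrogenase transcripts per transcript length in null mice 8637, 9121 and 9210, against 30.3% in wildtype mouse 9055 and 30.4% in 9056. The log2 ratio of Ldhb to Ldha was higher by 0.65 in null mice and by 0.53 without mouse 9121. An exact permutation test over the 5 mice gave p = 0.1, the smallest value this design allows (two-sided, adjusted p = 0.267 over 8 ratios), so it cannot reach 0.05.

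**Figure D3:**
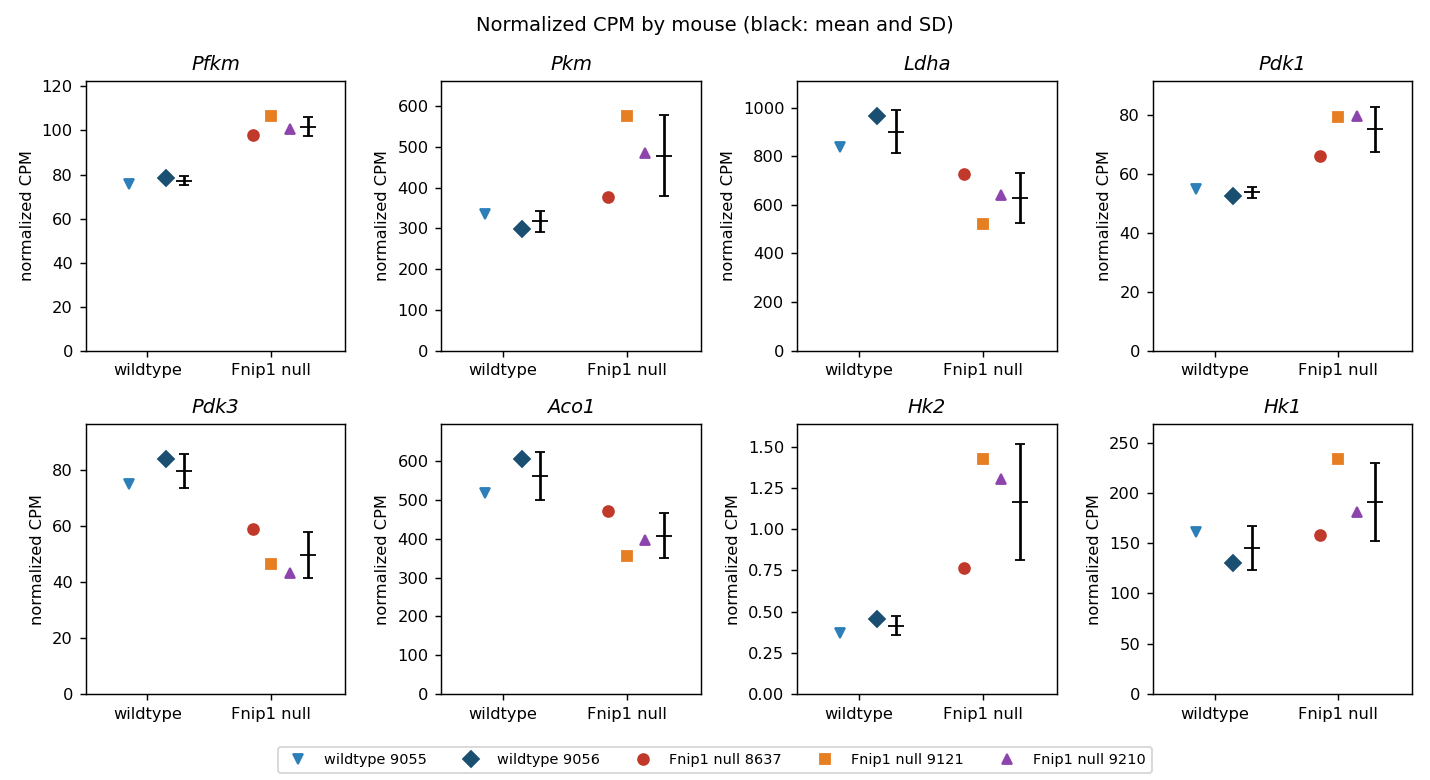
Normalized CPM (y axes, each starting at 0) of 8 enzyme transcripts in the 2 wildtype and 3 Fnip1 null mice, with a symbol for each mouse and the mean ± SD of each genotype in black. The genotypes do not overlap for Pfkm, Pkm, Ldha, Pdk1, Pdk3, Aco1 and Hk2, and they overlap for Hk1, where null mouse 8637 lies below wildtype mouse 9055.

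The promoters of 3 of these genes are shown because their transcripts differed without overlap in opposite directions, Pkm upward and both Ldha and Pdk3 downward. Each is the 250 bases before an annotated start in RefSeq (GRCm38.p6), written 5′ to 3′ on the strand of the gene. Capitals mark ACGTG, the core letters of the hypoxia response element, on either strand, which within CACGTG is also the E-box that Myc and other factors can bind.
Ldha promoter, chr7:46845554-46845803, plus strand: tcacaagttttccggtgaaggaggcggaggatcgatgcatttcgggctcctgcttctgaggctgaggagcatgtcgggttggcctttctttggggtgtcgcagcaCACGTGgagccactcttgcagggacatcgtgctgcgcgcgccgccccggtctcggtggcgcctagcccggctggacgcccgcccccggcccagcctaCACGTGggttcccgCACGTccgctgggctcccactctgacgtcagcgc
Pkm promoter, chr9:59656977-59657226, plus strand: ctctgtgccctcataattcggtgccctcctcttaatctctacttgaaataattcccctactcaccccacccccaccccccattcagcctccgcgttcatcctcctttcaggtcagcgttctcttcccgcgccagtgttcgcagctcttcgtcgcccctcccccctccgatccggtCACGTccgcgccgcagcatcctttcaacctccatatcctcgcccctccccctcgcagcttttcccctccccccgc
Pdk3 promoter, chrX:93832151-93832400, minus strand: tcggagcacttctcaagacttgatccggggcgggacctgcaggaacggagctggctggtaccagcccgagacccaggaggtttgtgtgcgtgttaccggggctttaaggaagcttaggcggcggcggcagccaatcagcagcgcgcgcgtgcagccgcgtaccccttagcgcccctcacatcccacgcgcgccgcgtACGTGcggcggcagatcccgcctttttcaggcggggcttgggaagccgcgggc
The Ldha sequence held CACGTG 2 times, and the other start of Ldha and the other start of Pkm had no match. In windows that also take in 50 bases after the start, ACGTG on either strand was found in 24 of 58 promoters of the members (41.4%) and in 19.6% of all 32851 promoters. CACGTG, which contains ACGTG, was found in 6 of 58 (10.3%), at Pfkm, Ldha, Pdk2 and Ogdh, and in 7.15% of all promoters. Idh3a had no entry, and 39 of the 40 genes were matched by symbol. A match describes these letters only. Genes with ACGTG were found among those higher in all null mice (Hk2, Pfkm, Aldoa, Pkm and Pdhb), among those lower in all null mice (Ldha, Pdk3 and Idh3g) and among those that overlapped.

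The 8 genes of pyruvate oxidation were 4 subunits of the complex and its 4 kinases. Of the 8, 4 lay above 0 and 4 below on the log2 scale, with a median fold change of 0.01, and 2 were under an unadjusted p of 0.05 (25.0%, the share of all genes being 25.1%). The catalytic subunits of the complex were near their wildtype level. Pdha1 and Pdhb, the E1 subunits that decarboxylate pyruvate, had log2 fold changes of -0.09 ± 0.14 and 0.15 ± 0.09, and Dlat and Dld, the E2 and E3 subunits, -0.00023 ± 0.11 and -0.13 ± 0.12 (SE). Pdhb was at 203, 190 and 210.0 CPM in null mice 8637, 9121 and 9210 and at 180 and 182 CPM in wildtype mice 9055 and 9056. It was thus higher in every null mouse, by 11.1% on average (adjusted p = 0.322, edgeR).

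Of the 4 pyruvate dehydrogenase kinases, Pdk1 and Pdk3 differed in opposite directions. Pdk1 (chr2:71873224-71903858, plus strand), a kinase known as a target of hypoxia-inducible factor, was at 66.2, 79.4 and 79.5 CPM in null mice 8637, 9121 and 9210 and at 54.9 and 52.4 CPM in wildtype mice 9055 and 9056. Mice 9121 and 9210 had nearly the same level and mouse 8637 lay between them and the wildtype mice. The log2 fold change was 0.48 ± 0.11 (SE, adjusted p = 0.09, edgeR), and 0.44 without mouse 9121. Pdk3 (chrX:93764607-93832201, minus strand) was at 58.8, 46.5 and 43.2 CPM in null mice 8637, 9121 and 9210 and at 75.2 and 83.8 CPM in wildtype mice 9055 and 9056. Each null mouse lay under both wildtype mice. Pdk3 had a log2 fold change of -0.68 ± 0.15 (SE, adjusted p = 0.0802, edgeR) with a 95% interval from -1.04 to -0.33, and -0.64 without mouse 9121. Pdk3 lies on the X chromosome, as do Pgk1, Pdha1 and Idh3g among the members. The labels do not give the sex of the mice, and sex was not tested. Pdk2, the main kinase of kidney among the 4 by level, had overlapping genotypes at a log2 fold change of 0.03 ± 0.12. Pdk4, which is induced by fasting, varied most of the kinases among null mice, at 25.7, 56.6 and 42.8 CPM, against 34.1 and 39.95 CPM in wildtype mice.

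Per transcript length, Pdk2 supplied 74.5% ± 3.13 of kinase transcripts in null mice and 71.1% ± 1.25 in wildtype mice (SD, n = 3 and 2), with overlapping ranges. Pdk3 supplied 13.2%, 11.9% and 10.49% in null mice 8637, 9121 and 9210, against 17.8% in wildtype mouse 9055 and 19.3% in 9056. Pdk1 supplied 6.06%, 8.27% and 7.88% in the null mice and 5.31% and 4.92% in the wildtype mice. Pdk3 was thus the second kinase by level per length in every mouse, with a lower share in each null mouse. The plot of isozyme makeup shows these shares beside those of phosphofructokinase, lactate dehydrogenase and malate dehydrogenase.

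**Figure D4:**
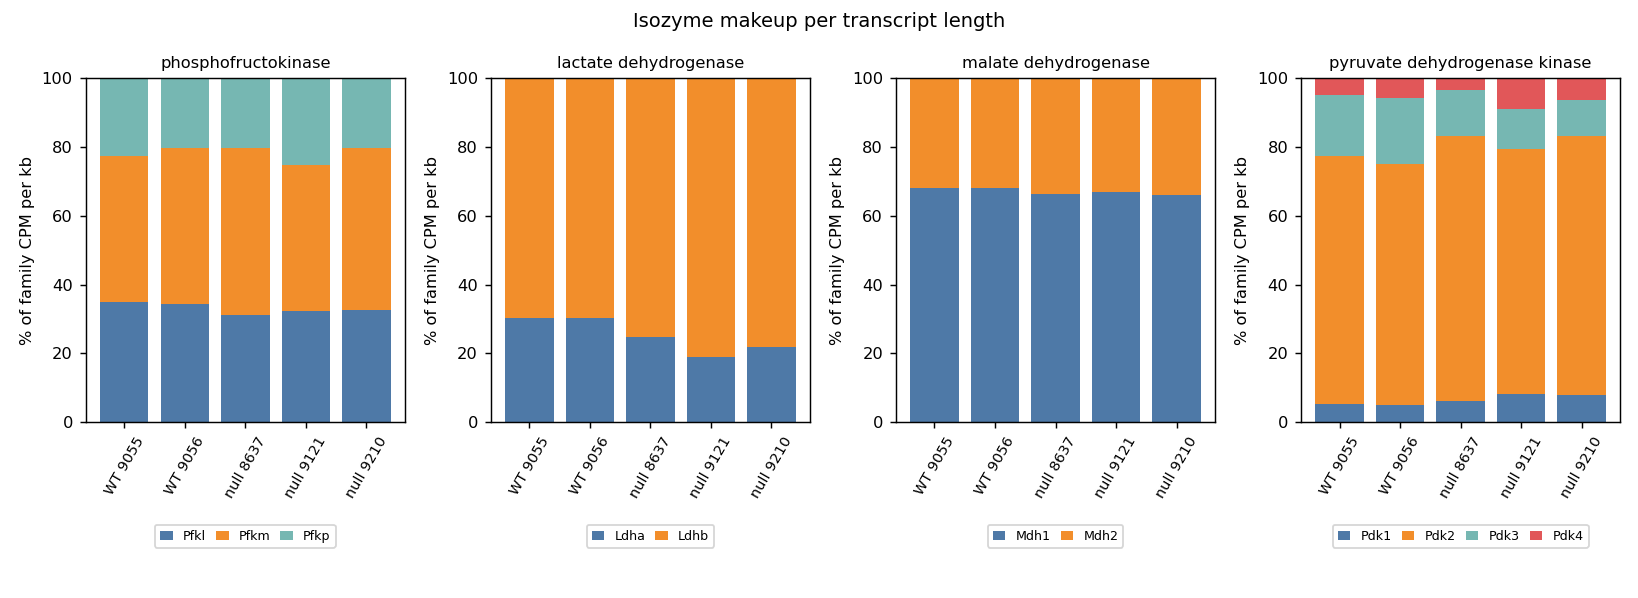
Stacked bars give the percentage of CPM per kilobase of transcript that each isozyme contributes to its family in each mouse (2 wildtype, labelled WT, and 3 Fnip1 null), for phosphofructokinase, lactate dehydrogenase, malate dehydrogenase and pyruvate dehydrogenase kinase. The Ldha part is 30.3% and 30.4% in wildtype mice and 19.1% to 24.7% in null mice.

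The TCA cycle was the flattest group. Of 15 genes, 6 lay above 0 and 9 below on the log2 scale, with a median fold change of -0.06 (-0.0068 without mouse 9121). Scaling by library size alone moved the median of all genes by 0.16 on the log2 scale and put the TCA cycle median at 0.11. Genotypes did not overlap for 3 of the 15 (20%, against 45.9% of all genes). The change was under 0.25 in size on the log2 scale for 14 of the 15 (93.3%, against 53.8% of all genes). All 15 intervals lay within 2-fold (70.4% of all genes). Their summed level was 8432, 7661 and 8016 CPM in null mice 8637, 9121 and 9210 and 7858 and 8758 CPM in wildtype mice 9055 and 9056. The single member under an unadjusted p of 0.05 (6.67%, against 25.1% of all genes) was Aco1 (chr4:40143081-40198338, plus strand). It is the cytosolic aconitase and, when it lacks its iron-sulfur cluster, an iron regulatory protein. Aco1 was at 471, 355 and 398 CPM in null mice 8637, 9121 and 9210 and at 518 and 605 CPM in wildtype mice 9055 and 9056. The null mice were all lower, by 27.3% on average. For Aco1 the log2 fold change was -0.46 ± 0.15 (SE, adjusted p = 0.142, edgeR), and -0.37 without mouse 9121.

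Isocitrate dehydrogenase occurs as cytosolic Idh1, mitochondrial Idh2, which makes NADPH, and the NAD-linked enzyme of the cycle with subunits Idh3a, Idh3b and Idh3g. Idh2 was at 727, 686 and 676 CPM in null mice 8637, 9121 and 9210 and at 606 and 607 CPM in wildtype mice 9055 and 9056. All null mice were higher, at a log2 fold change of 0.20 ± 0.11 (SE, adjusted p = 0.312, edgeR). Idh3g was at 323, 312 and 312 CPM in the null mice and 332 and 369 CPM in the wildtype mice, lower in every null mouse at -0.15 ± 0.10, or 0.014 when scaled by library size alone. The other subunits of that enzyme lay on the other side, Idh3a at 0.18 ± 0.10 and Idh3b at 0.05 ± 0.10 on the log2 scale, with overlapping genotypes. Idh1 was at 0.01 ± 0.12.

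The remaining steps overlapped between genotypes. Citrate synthase (Cs), the entry of the cycle, had a log2 fold change of 0.07 ± 0.10. Ogdh and Dlst of the oxoglutarate dehydrogenase complex were at -0.06 ± 0.14 and -0.16 ± 0.14. The succinyl-CoA ligase subunits Sucla2, Suclg1 and Suclg2 were at -0.07 ± 0.11, -0.13 ± 0.12 and -0.10 ± 0.16, and fumarase (Fh1) at -0.04 ± 0.09. Mdh1 and Mdh2, the cytosolic and mitochondrial malate dehydrogenases, were at -0.06 ± 0.16 and 0.06 ± 0.11 (SE). The log2 ratio of Mdh1 to Mdh2 per transcript length was 0.98, 1.01 and 0.96 in null mice 8637, 9121 and 9210, against 1.10 in both wildtype mice. The ratio was lower in all null mice by 0.12 on average (exact permutation p = 0.1, two-sided, the smallest this design allows, adjusted p = 0.267 over 8 ratios).

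The ratios of Ldhb to Ldha, Hk1 to Hk2 and Mdh1 to Mdh2 did not overlap between genotypes. The log2 ratio of Hk1 to Hk2 was lower by 1.07 in null mice and by 1.05 without mouse 9121 (exact permutation p = 0.1, two-sided), and it rests on the few counts of Hk2. Pfkl to Pfkm, Aldoa to Aldoc, Pdk2 to Pdk4 and Idh1 to Idh2 overlapped, with exact permutation p from 0.3 to 0.8.

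Levels spanned a wide range. Per kilobase of transcript, Ldhb was the most abundant at 1266 ± 23.9 CPM per kb in null mice and 1171 ± 111 in wildtype mice, followed in wildtype mice by Gapdh (781 ± 63.7), Mdh1 (758 ± 60.6), Aldoa (621 ± 21.2), Tpi1 (532 ± 27.5) and Ldha (510 ± 50.4; SD, n = 2). Gapdh and Mdh1 did not differ beyond their spread, nor did Tpi1 and Ldha. In null mice Ldha, at 356 ± 58.8 CPM per kb, stood below Pgk1 (419 ± 15.4), Idh2 (399 ± 15.3) and Mdh2 (369 ± 8.28), and its range over mice overlapped that of each. The least abundant tested member was Hk2 at 0.211 ± 0.0638 CPM per kb in null mice, and 30 of the 39 averaged at least 100 CPM.

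Genes of the same pathway outside the 40 were read the same way. Of 19 further glycolytic isozymes and regulators, 18 were tested and 0 passed the FDR in the quasi-likelihood test (0.678% of all genes), 3 passed in edgeR's exact test (9.82% of all genes) and 2 in DESeq2 (10.4%), with 7 under an unadjusted p of 0.05 (38.9%, against 25.1% of all genes). Those higher in null mice were Pfkfb3, Pgam2 and the enolases Eno2 and Eno3. Eno2 was rare, at 0.632, 0.680 and 0.999 CPM per kb in null mice 8637, 9121 and 9210. Its level was 0.422 and 0.368 CPM per kb in wildtype mice 9055 and 9056. On the log2 scale, Pfkfb3, which makes the activator of phosphofructokinase, was at 0.70 ± 0.17 (SE). Pgam2, the muscle phosphoglycerate mutase, was at 0.67 ± 0.12, and Eno2 and Eno3 were at 0.96 ± 0.33 and 0.49 ± 0.19. Those lower were Ldhd, a mitochondrial D-lactate dehydrogenase, at -1.66 ± 0.41, Pgm2 at -0.41 ± 0.14 and Bpgm at -0.27 ± 0.08. Ldhd was at 897, 330 and 420 CPM in null mice 8637, 9121 and 9210 and at 1743 and 1716 CPM in wildtype mice 9055 and 9056 (adjusted p = 0.0979, edgeR). Glucose transporter Slc2a1 overlapped at 0.29 ± 0.23.

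Of 16 genes of pyruvate entry, export and acetyl-CoA supply, 1 rose past the FDR (0.678% of all genes), 6 passed in edgeR's exact test (9.82% of all genes) and 6 in DESeq2 (10.4%), and 6 were under an unadjusted p of 0.05 (37.5%, against 25.1% of all genes). Acss1, a mitochondrial enzyme that makes acetyl-CoA from acetate, was at 700, 798 and 840 CPM in null mice 8637, 9121 and 9210 and at 359 and 358 CPM in wildtype mice 9055 and 9056. Acss1 had a log2 fold change of 1.12 ± 0.13 (SE, adjusted p = 0.0378, edgeR), and 1.10 without mouse 9121 (adjusted p = 0.0313), but the call was lost without mouse 9210, 9055 or 9056, when 0 genes of the whole table passed the FDR. Acss2, its cytosolic counterpart, lay on the other side at -0.83 ± 0.24 (adjusted p = 0.114). The malic enzymes were split too, with cytosolic Me1 at -1.17 ± 0.29 and mitochondrial Me2 and Me3 at 1.07 ± 0.18 and 0.59 ± 0.15 (adjusted p from 0.0644 to 0.102). Slc16a7, a carrier of pyruvate and lactate, was at 0.84 ± 0.14 (adjusted p = 0.0644). The pyruvate carrier subunits Mpc1 and Mpc2 were at -0.22 ± 0.12 and -0.02 ± 0.10, and Pcx, which carboxylates pyruvate, at -0.39 ± 0.24.

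Of 14 further TCA cycle genes, 0 passed the FDR in the quasi-likelihood test (0.678% of all genes), 1 passed in edgeR's exact test (9.82%) and 1 in DESeq2 (10.4%), and 4 were under an unadjusted p of 0.05 (28.6%, against 25.1% of all genes). Ogdhl, a relative of Ogdh, was at 10.2, 17.1 and 12.8 CPM in null mice 8637, 9121 and 9210 and at 6.39 and 6.69 CPM in wildtype mice 9055 and 9056, a log2 fold change of 1.04 ± 0.24 (SE, adjusted p = 0.0902, edgeR). Sdhaf1, an assembly factor of succinate dehydrogenase, was at -0.43 ± 0.14, Fahd1 at -0.30 ± 0.11 and D2hgdh at -0.29 ± 0.12. The 4 subunits of succinate dehydrogenase, Sdha to Sdhd, all overlapped, with log2 fold changes from -0.13 to 0.08.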

How the data were processed

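The authors sequenced kidney cortical tissue as paired-end 50-base RNA-seq, and 3 Fnip1 null and 2 wildtype mice were analysed here, while the study describes 3 of each. Per the labels and the study's methods, reads were aligned to mm10 with TopHat2 2.1.0 and counted per gene symbol with HTSeq 0.6.1, and the deposited values are raw counts of 1 file per mouse. The annotation and strand setting of the counting are not given in the sources used here, so reads of overlapping or antisense genes (Hk1os at Hk1, for example) cannot be told apart. Rows that name no gene held 39.0% to 42.8% of each file (28.3% to 31.4% were reads aligned to more than 1 place) and were left out, so that genes with near-identical copies lose reads.

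Genes with fewer than 10 counts in more than 2 mice were removed, which left 13874. edgeR 4.0.16 (R 4.3.3) with TMM scaling and the quasi-likelihood test (glmQLFit and glmQLFTest, legacy = FALSE) compared genotypes without covariates, Benjamini-Hochberg adjusted over all genes tested. Calls used an FDR of 5%, alone and with a 2-fold change. Fold changes are log2, null minus wildtype, with the standard error from the fit. Mice are separate animals. Isozyme ratios were compared by a two-sided exact permutation test, adjusted over 8 ratios, and some results are not reported here. Intervals cover 95%, and 3 counts were taken as the limit that a count of 0 allows, both for the spread or counting error of these libraries only.

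Transcript lengths (longest principal transcript), coordinates and shared 50-base stretches came from GENCODE M21 on GRCm38, the assembly of mm10, and promoters from RefSeq. The scripts were tested on simulated counts. Alternatives were RLE scaling, library size only, no filter, edgeR's exact test, DESeq2 1.42.0, leaving out each mouse and, chosen after seeing the data, the legacy form of the quasi-likelihood fit. The members are described in full where they passed a test or did not overlap, and the pathway genes outside them are named where the unadjusted p was under 0.05, with a few others chosen after their values were seen (Slc2a1, Mpc1, Mpc2, Pcx, Pklr and the succinate dehydrogenase subunits). The members, lists and markers were chosen with earlier results of these data known. Beside the marker lists in the results, those checked were thick ascending limb (6 genes, 8722 to 12862 CPM in null and 8872 to 9842 CPM in wildtype mice), adipocyte (6, 54.0 to 347 against 35.3 to 36.4 CPM), T and NK cell (5, 5.95 to 15.6 against 2.11 to 5.34 CPM), B cell (5, 0.0594 to 0.686 against 2.17 to 2.73 CPM), skeletal muscle (6, 1.54 to 2.43 against 1.12 to 1.31 CPM) and erythroid (6, 16.6 to 24.2 against 11.9 to 16.9 CPM).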

Additional observations from a re-analysis of the deposited data

How the results depend on the processing

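No paired analysis was possible because the mouse numbers in the labels are those of single animals and no number occurs in both genotypes. With all mice, no member passed the FDR in the quasi-likelihood test under RLE scaling, library size only, no filter or the legacy fit either. The count was 4 with edgeR's exact test (1 with the 2-fold limit) and 5 with DESeq2. With library size only, the median of all genes moved by 0.16 on the log2 scale, and the medians of the glycolytic, pyruvate and TCA cycle members were 0.31, 0.17 and 0.11. Under that scaling 15 members that had been below 0 lay above it, with log2 fold changes of Tpi1 0.014, Gapdh 0.045, Pgk1 0.054, Pgam1 0.16, Eno1 0.12, Pdha1 0.070, Dlat 0.16, Dld 0.031, Idh3g 0.014, Ogdh 0.10, Sucla2 0.094, Suclg1 0.029, Suclg2 0.062, Fh1 0.12, Mdh1 0.11. Relative to the moved median, these lie below it. Dlat, at -0.00023 in the main comparison, was at 0.00033 with RLE and 0.00021 with DESeq2.

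Leaving out each mouse in turn gave 0 to 7 members past the FDR and 0 to 1 with the 2-fold limit, where mouse 8637 alone gave the higher counts. Leaving out a wildtype mouse leaves 1, which is assumed to vary like the null mice. The median log2 fold change ranged from 0.082 to 0.17 for the glycolytic members and from -0.12 to 0.022 for the TCA cycle members. The members that changed sign, none of them under an unadjusted p of 0.05 with all mice, ranged as follows on the log2 scale: Pgam1 -0.082 to 0.069, Pdk2 -0.048 to 0.10, Aldoc -0.097 to 0.85, Dlat -0.065 to 0.055, Pdk4 -0.11 to 0.43, Idh1 -0.10 to 0.13, Sucla2 -0.14 to 0.0059, Suclg2 -0.20 to 0.0065, Idh3b -0.037 to 0.13, Mdh2 -0.025 to 0.14, Eno1 -0.19 to 0.10, Ogdh -0.13 to 0.00037, Fh1 -0.10 to 0.022, Mdh1 -0.14 to 0.024. Hk2, Pfkm, Pkm, Ldha, Pdk1, Pdk3 and Aco1 kept their direction in every alternative.

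With 3 against 2 mice the exact permutation test cannot go below 0.1. Among the members, counts are few for Hk2 and Hk3, with at most 32 in a library.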
